A study of Aspergillus niger with 6 samples.

Results

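The effect of a lower air supply on transcript levels was examined at 48 h of a citrate fermentation by Aspergillus niger strain H915-1, a filamentous fungus that grew as pellets. A library made at 1.5 vvm (culture volumes of air supplied each minute) was set against the library of the same age at 3 vvm. The strain and the age were the same in both groups, and no genetic change or added agent is named in the labels. Each group was 1 library of the 6 in the series, and the other 4 were taken at 6, 12, 24 and 36 h and 3 vvm. A group is therefore a single culture sample as far as the labels say, so no difference below has a replicate check and no p-value was computed between the 2 libraries alone. Genes entered the comparison if both deposited tables listed them and if at least 1 of the 2 libraries reached 10 FPKM (fragments scaled to transcript length and sequencing depth). Of 9930 genes in both tables, 7535 met this rule. The lowest of them had 10.01 FPKM in its higher library and the gene just outside had 9.998 FPKM. Of the 7535, 6462 reached 10 FPKM in both libraries, 910 at 1.5 vvm alone and 163 at 3 vvm alone.

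Aspergillus niger is the main industrial producer of citric acid, which it forms from sugar through glycolysis and mitochondrial citrate synthase and then exports. The process depends on a steady supply of oxygen, which serves as the final electron acceptor of respiration. The fungus also has an alternative oxidase, which passes electrons to oxygen without pumping protons. Genes of these pathways could not be singled out here. The tables give identifiers of a gene prediction, none of their 10257 identifiers was found in the table of names available for another strain's assembly, and the files do not pair them with functions. Genes are therefore described by their level, their span, their position on the contigs of the authors' assembly and their course at 3 vvm.

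The 2 libraries were close in depth, with 6708034 fragments at 1.5 vvm and 6100480 at 3 vvm. They came in separate deposited tables, and the labels do not say whether they were prepared or sequenced together, so a difference between preparations and one between air supplies cannot be told apart. Pellets were measured whole, so fewer cells expressing a gene and less transcript per cell cannot be told apart either. The median gene of the comparison had 336 and 270 fragments. Only 100 of the 7535 genes had fewer than 20 fragments in the library with more. All intervals below are exact 95% Clopper-Pearson intervals and cover counting error alone.

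More genes were higher than lower at the reduced air supply. On the scale of log2(FPKM + 1), 1189 genes (15.8%) were at least 2-fold higher at 1.5 vvm and 253 (3.36%) were at least 2-fold lower, while 6093 lay within 2-fold. At least 4-fold apart were 373 genes (4.95%) higher and 50 (0.664%) lower. At least 8-fold apart were 160 genes (2.12%) higher and 10 (0.133%) lower, and at least 16-fold apart were 49 (0.65%) and 2 (0.0265%). The median gene was 0.17 higher on the log2 scale, the quartiles over genes were -0.20 and 0.68, and the full range ran from -4.41 to 7.63. For scale, by the same rule the libraries at 48 and 36 h and 3 vvm had 136 genes (1.98%) higher and 106 (1.55%) lower of 6856, a comparison that shares the 48 h library.

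**Figure D1:**
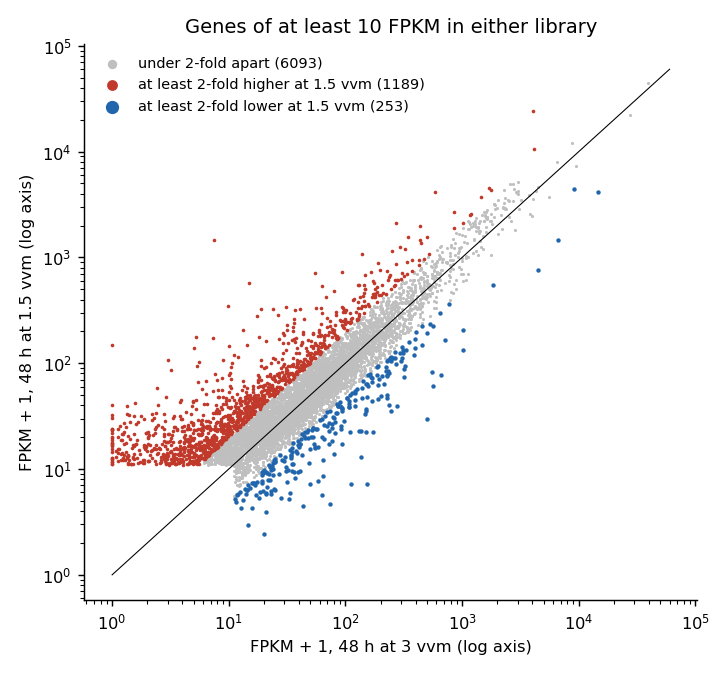
Each point is 1 of the 7535 genes, with FPKM + 1 at 48 h and 3 vvm on the horizontal axis and at 48 h and 1.5 vvm on the vertical axis, both log axes; the line marks equal levels. The 1189 genes at least 2-fold higher lie mainly at the low end, and the 253 lower genes are spread over the whole range of levels.

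How far the balance leaned to higher genes depended on scaling. As deposited, 82.5% of the genes past 2-fold were higher. With the FPKM of the libraries rescaled to a common sum, 787 genes were higher and 423 lower (65.04% higher), and the median log2 change was -0.10 in place of 0.17. With log2 changes centred on their own median, the counts were 960 and 366 (72.4% higher). Changes of less than this shift have no firm direction.

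Counting error alone covered few of the differences. The interval of the fragment ratio, taken relative to depth, lay wholly above 2 for 775 genes (10.3%) and wholly below 0.5 for 169 (2.24%). Among genes past 2-fold, the interval did not exclude equal levels for 26 of the 1189 higher genes and for 6 of the 253 lower ones. Spread between cultures is not part of these intervals and could not be measured.

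Higher genes were most frequent at low expression, but their share did not fall steadily with level. Of 3832 genes with 10 to 50 FPKM in the higher library, 765 (19.96%) were at least 2-fold higher and 103 (2.69%) lower. From 50 to 200 FPKM these were 270 (9.97%) and 93 (3.43%) of 2708 genes. From 200 to 1000 FPKM they were 131 (15.7%) and 50 (6.00%) of 833, and above 1000 FPKM 23 (14.2%) and 7 (4.32%) of 162. With genes of all spans pooled, the excess of higher genes was thus present in each class. It ran from 88.1% of the genes past 2-fold in the lowest class to 72.4% in the class from 200 FPKM. It was uneven over gene span, as given below. Part of the low class follows from the filter: 621 of the 1189 higher genes reached 10 FPKM at 1.5 vvm alone, and of the 6462 genes at 10 FPKM or more in both libraries, 568 were higher and 181 lower. A low level was also present at 1.5 vvm in genes with little or no expression at 3 vvm. The 442 genes that stayed below 0.5 FPKM throughout the time course were chosen without the 1.5 vvm library, which favours higher values there. No value chosen in the same way is given for a library at 3 vvm. The median of the 442 genes at 1.5 vvm was 1.57 FPKM. With this level taken off every gene at 1.5 vvm, 1077 of the 1189 genes were still at least 2-fold higher, and the lower genes went from 253 to 311, a direction that the step itself fixes.

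The difference followed the span of the gene, the distance from its first to its last base in the tables, which may include introns. In the shortest quartile, with spans from 180 to 1025 bases, 473 of 1887 genes (25.1%) passed 2-fold upward at 1.5 vvm and 51 (2.70%) downward, and the median log2 change was 0.45. In the second quartile the median was 0.29, and in the third it was 0.11. In the longest quartile, from 2172 to 19321 bases, 95 of 1883 genes (5.05%) were higher and 64 (3.40%) lower, with a median of -0.06. The same order held within each class of level. Medians of the shortest and longest quartiles were 0.55 and 0.01 from 10 to 50 FPKM, and 0.34 and -0.19 from 50 to 200 FPKM. They were 0.47 and -0.16 from 200 to 1000 FPKM, and 0.65 and 0.04 above 1000 FPKM, where the longest quartile held 14 genes. Long genes of higher level showed little or no excess. In the longest quartile, 60 genes were higher and 31 lower from 10 to 50 FPKM, and 21 and 18 from 50 to 200 FPKM. From 200 to 1000 FPKM they were 13 and 12, and above 1000 FPKM 1 and 3. In the third quartile, 11 were higher and 16 lower from 200 to 1000 FPKM.

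The gradient with span was larger than that of the other libraries. The median of the shortest quartile exceeded that of the longest by 0.51 when the 1.5 vvm library was set against the 48 h library at 3 vvm. Set against that same library, the values were 0.22 for 6 h, -0.06 for 12 h, -0.07 for 24 h and -0.07 for 36 h, and these comparisons share it. With each log2 change centred on the median of its decile of gene span, a setting added once the data had been seen, 831 genes were higher and 394 lower (67.8% higher), of which 822 and 244 were among the genes named higher and lower above. The part of span in the difference between the aeration rates was not tested, and the span of each gene is given below beside its values.

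**Figure D2:**
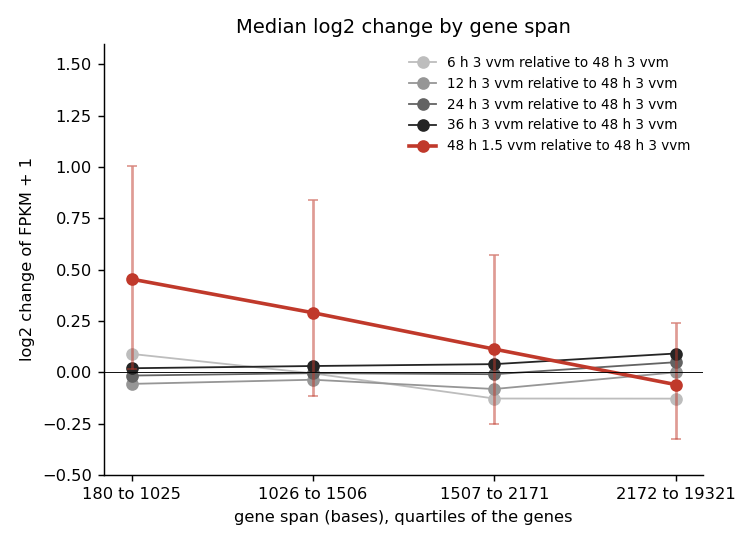
Median log2 change of FPKM + 1 relative to the 48 h library at 3 vvm (vertical axis) in 4 quartiles of gene span in bases (horizontal axis), with 1 line per library; bars on the 1.5 vvm line span the quartiles over genes. The 1.5 vvm line falls from 0.45 in the shortest to -0.06 in the longest quartile, while the medians of the 4 earlier libraries at 3 vvm stay between -0.13 and 0.09.

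The most abundant transcripts were partly exchanged. The 20 most abundant genes took 17.2% of the summed FPKM at 1.5 vvm and 18.7% at 3 vvm, and 10 genes were in both lists. Of the 30 genes in at least 1 list, 5 (16.7%) were at least 2-fold higher at 1.5 vvm and 4 (13.3%) lower. Their median log2 change was 0.13. Over all genes compared, the shares were 15.8% and 3.36%. A gene joins a list by being high in 1 of the 2 libraries compared, a choice that itself favours differences. The shares of the 30 genes therefore show no excess of changed genes among abundant ones.

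A short gene on unitig_4 from 3053986 to 3054454, with a span of 469 bases, became the second most abundant at 1.5 vvm. Its FPKM at the 5 successive times of the 3 vvm course (6, 12, 24, 36 and 48 h) were 14031, 13400, 14549, 11544 and 4080, and it reached 24384 FPKM at 1.5 vvm. Its level at 48 h was the lowest of the course at 3 vvm and its level at 1.5 vvm the highest of all 6 libraries, with a fragment ratio of 6.22 (95% interval 6.01 to 6.44). The gene on unitig_2 from 4146864 to 4147336 (473 bases) had 0, 0, 353, 53.1 and 582 FPKM at the same times and 4141 at 1.5 vvm, a ratio of 7.32 (6.46 to 8.33). Its level varied at 3 vvm without order in time and was highest at 1.5 vvm.

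The other 3 abundant genes that were higher had smaller differences. The gene on unitig_0 from 4513566 to 4514167 (602 bases) was steady at 3 vvm, between 3435 FPKM at 24 h and 4523 at 12 h, and stood at 10615 at 1.5 vvm against 4146 at 48 h. The gene on unitig_2 from 1119235 to 1120224 (990 bases) was at 4533 FPKM at 1.5 vvm and 1701 at 48 h, and the one on unitig_0 from 826033 to 826624 (592 bases) at 4325 and 1765. Both had been higher earlier at 3 vvm, at 4858 FPKM at 24 h and at 6205 FPKM at 6 h. All 5 higher genes thus had spans under the 1025 bases that bound the shortest quartile. Such spans are usual at this level, with a median of 954 bases over the 162 genes above 1000 FPKM. A lower gene described next, of 503 bases, was short too.

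The 4 abundant genes that were lower included the third most abundant at 3 vvm. This gene, on contig 1 from 934992 to 938115 (3124 bases), had 9529, 10307, 9665, 8264 and 14669 FPKM over the 5 times at 3 vvm and 4112 at 1.5 vvm. Its level at 1.5 vvm was below all 5 libraries at 3 vvm, and the fragment ratio of 3 to 1.5 vvm was 3.62 (3.59 to 3.64). The gene on unitig_2 from 4754900 to 4755402 (503 bases) climbed through the course at 3 vvm, with 166, 323, 491, 1421 and 6649 FPKM, and was at 1458 with less air. That level is close to the one at 36 h. The gene on unitig_6 from 790287 to 791447 (1161 bases) had 6638, 2970, 2500, 1239 and 4514 FPKM over the course, and its 763 FPKM at 1.5 vvm was the lowest of the 6 libraries. The gene on unitig_3 from 3238295 to 3240672 (2378 bases) had 9406, 13401, 9128, 5542 and 9090 FPKM over the course and 4401 at 1.5 vvm.

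The largest differences were then read among genes of a firm level, at least 100 FPKM in the higher library and at least 10 FPKM in both. Of 2013 such genes, 251 (12.5%) were at least 2-fold higher at 1.5 vvm and 98 (4.87%) lower, 58 and 26 at least 4-fold, and 14 and 4 at least 8-fold. Another 10 genes of at least 100 FPKM were under 10 FPKM at 3 vvm and 2 were under it at 1.5 vvm.

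The largest difference in this set was in the gene on contig 1 from 2909311 to 2910291 (981 bases). Over the 5 times at 3 vvm it had 43.1, 59.02, 17.4, 14.9 and 13.8 FPKM, and at 1.5 vvm it had 578. The 1.5 vvm library lay far above all 5 libraries at 3 vvm, with a log2 change of 5.29 and 2409 fragments against 53, a ratio of 41.3 (31.5 to 55.3). The second was evm.model.unitig_6.10, on unitig_6 from 37962 to 38326 (365 bases), with 0, 0, 7.74, 4.35 and 17.7 FPKM over the course and 327 with less air. Its log2 change was 4.13, from 10 fragments at 3 vvm and 198 at 1.5 vvm, a ratio of 18.0 (9.59 to 38.1). It lies among neighbours with the same direction, described further on.

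The largest difference downward was in evm.model.unitig_1.1435, on unitig_1 from 4902137 to 4903828 (1692 bases). Its course at 3 vvm was 144, 244, 154, 90.2 and 502 FPKM, and it had 28.4 FPKM at 1.5 vvm. Its level at 1.5 vvm was below the whole course at 3 vvm, with a log2 change of -4.10 against 48 h and of -1.63 against 36 h. Next was evm.model.unitig_3.926, on unitig_3 from 3196105 to 3197625 (1521 bases), with 17.8, 34.6, 24.7, 146 and 135 FPKM over the course and 12.1 at 1.5 vvm. The high levels of this gene at 36 and 48 h were not present at 1.5 vvm, where its log2 change was -3.38, or -0.98 against the 24 h library.

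Genes higher and lower at 1.5 vvm differed in their median course at 3 vvm. The 1189 higher genes had medians of 11.9, 11.9, 11.5, 10.6 and 9.12 FPKM over the 5 times and of 31.5 at 1.5 vvm. The 253 lower genes had medians of 18.6, 23.8, 28.9, 51.9 and 71.8 FPKM from 6 to 48 h, and of 21.8 at 1.5 vvm, between the medians at 6 and 12 h. The median of the higher genes was thus nearly level at 3 vvm and that of the lower genes climbed. Single higher genes were often not level. Their upper quartile fell from 51.5 FPKM at 6 h to 28.0 at 48 h and 3 vvm. Of the 1189, 465 had less than a 2-fold range over the course and 724 did not. Both lists were chosen with the 48 h library, so its position is part of the choice.

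**Figure D3:**
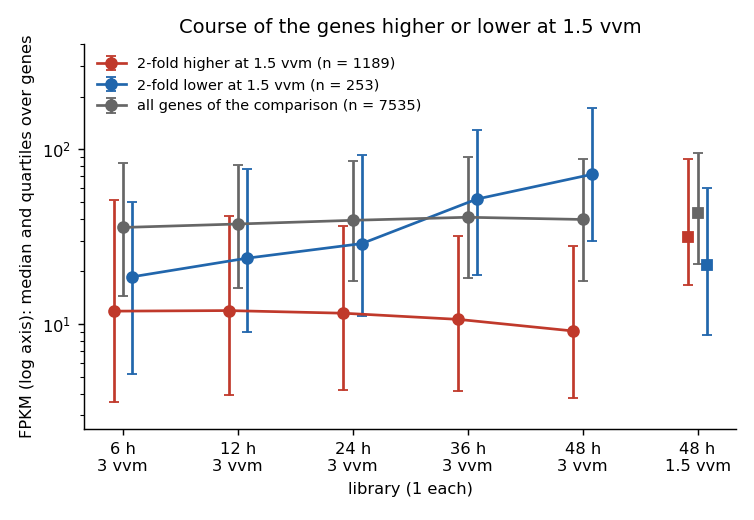
Median FPKM on a log axis, with bars for the quartiles over genes, in the 6 libraries for the genes at least 2-fold higher (1189) or lower (253) at 1.5 vvm and for all 7535 genes compared. The median of the lower genes climbs from 18.6 to 71.8 FPKM over the course at 3 vvm and stands at 21.8 FPKM at 1.5 vvm.

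A grouping by the early course, 24 against 6 h at 3 vvm, was made over the 6877 genes with at least 10 FPKM at 6 or 24 h, so that neither the groups nor the filter used a 48 h library. This filter was added once the data had been seen. For 170 genes the 24 h level was at least 4-fold under that of 6 h. Their median log2 change at 1.5 vvm relative to 3 vvm was 1.16, with 93 of them (54.7%) past 2-fold upward and 6 downward. Those 2- to 4-fold under it numbered 428, with a median of 0.75, and the 5469 genes less than 2-fold apart had a median of 0.11, with 8.26% upward and 1.76% downward.

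Genes that had climbed early passed 2-fold in both directions. The 532 genes 2- to 4-fold higher at 24 h than at 6 h had a median of -0.16, with 40 upward (7.52%) and 55 downward (10.3%) past 2-fold. The 278 genes at least 4-fold higher had a median of -0.16, with 43 upward (15.5%) and 33 downward (11.9%). These medians are smaller than the shift that rescaling gives, so their direction is not firm. Both downward shares were above the 1.76% of the genes less than 2-fold apart. The upward shares lay on either side of their 8.26%. The group 4-fold lower early had a median span of 1326 bases and a median of 8.43 FPKM at 48 h and 3 vvm, against 1565 bases and 45.5 FPKM in the 5469 genes, and the parts of span and level were not tested. Among the 7535 genes, whose filter uses both 48 h libraries and lets a low gene in only where it is high, the group 4-fold lower early had 125 genes and a median of 1.34.

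The level at 1.5 vvm was then set against the whole course at 3 vvm. Of the 1189 higher genes, 478 were at least 2-fold above the highest of the 5 libraries at 3 vvm (6.34% of all genes compared), 496 were above it by less, and 215 lay within the range of the course. Of the 253 lower genes, 19 were at least 2-fold below the lowest library at 3 vvm (0.252%), 57 were below it by less, and 177 lay within the range. Within the range, the higher genes were nearest to 6 h in 84 cases, to 12 h in 80, to 24 h in 33 and to 36 h in 17 of 215. The lower genes were nearest to 12 h in 71, to 24 h in 67, to 36 h in 24 and to 6 h in 15 of 177. Both lists were chosen to lie at least 2-fold from the 48 h library at 3 vvm, which largely shuts out 48 h in advance. It was nearest for 1 of the 215 and 0 of the 177. No shares over all genes are given beside these counts, so they show no likeness of the 1.5 vvm library to an earlier time.

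The filter bears on the count of 478: 368 of these genes were under 10 FPKM at 48 h and 3 vvm and entered through their level at 1.5 vvm alone. Of the 568 higher genes with at least 10 FPKM in both libraries, 110 were at least 2-fold above the course, 319 were above it by less and 139 lay within it. At 50 FPKM or more in either library, the count was 101 beside 424 higher genes. The 478 genes were mostly of low level. Their median was 22.05 FPKM at 1.5 vvm, against 43.2 FPKM over all genes compared. In the highest library at 3 vvm their median was 5.79 FPKM, and 42 of them reached 200 FPKM at 1.5 vvm. At least 8-fold above the course were 62 genes. The median span of the 478 genes was 1149 bases, with 190 of them in the shortest and 43 in the longest quartile.

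The same count was made for each library against the other 5, over the 7736 genes with 10 FPKM in any of the 6. At 6 h, 162 genes were at least 2-fold above and 372 at least 2-fold below all others. At 12, 24 and 36 h between 8 and 11 genes were above, and at 48 h and 3 vvm 34 were above and 16 below. The 1.5 vvm library had 478 above and 19 below. With values as deposited, it was the library with the most genes above all others, and the 6 h library was the one with the most genes below. The count above at 1.5 vvm was 329 with FPKM rescaled to a common sum. It was 398 when centred on the median and 361 when centred by deciles of span. Counts of the other libraries in these settings are not given here.

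**Figure D4:**
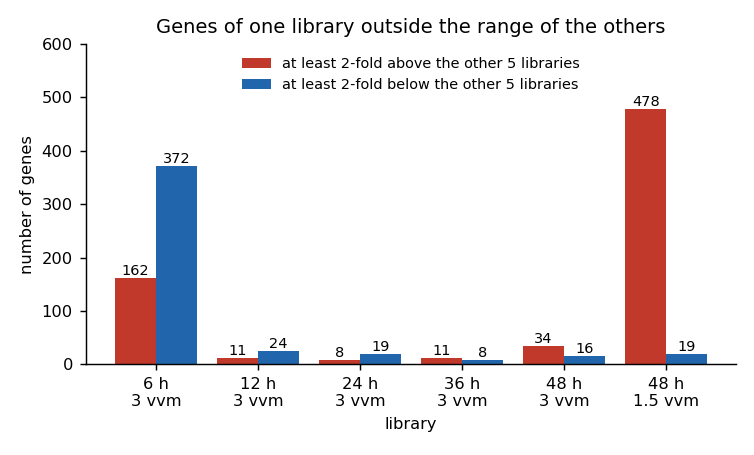
Number of genes (vertical axis) at least 2-fold above or below all other 5 libraries on the FPKM + 1 scale, for each library (horizontal axis), among 7736 genes of at least 10 FPKM in any library. The bars stand at 478 above for 1.5 vvm and at 372 below for 6 h.

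Genes with a steady level at 3 vvm were counted separately. Of 4532 genes with less than a 2-fold range over the 5 libraries at 3 vvm, 465 (10.3%) were at least 2-fold higher at 1.5 vvm and 22 (0.485%) lower, beside 724 (24.1%) and 231 (7.69%) of the other 3003. Among steady genes of the shortest quartile 167 of 938 were higher, and of the longest 42 of 1367. The filter bears on these counts. A gene near 0 FPKM throughout the course is steady on the FPKM + 1 scale and enters only by reaching 10 FPKM at 1.5 vvm. Its upward direction is then fixed by the filter. At 50 FPKM or more in either library, 104 steady genes were higher and 14 lower. Of 505 steady genes that reached 200 FPKM in either library, 30 were higher and 8 lower.

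Neighbouring genes shared the direction in 11 places. Runs of at least 4 consecutive listed genes, all in the comparison and all at least 2-fold apart in one direction, numbered 10 higher with 50 genes and 1 lower with 5 genes. With values rescaled to a common sum 5 runs were higher. Genes higher at 1.5 vvm outnumber those lower, which by itself gives more runs in that direction.

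Of the runs of at least 5 genes, the one with the largest median difference covered 20.8 kb of unitig_6, from 26302 to 47093, and held evm.model.unitig_6.10. Its 8 genes were between 4.49 and 92.2 FPKM at 48 h and 3 vvm and between 65.7 and 731 FPKM at 1.5 vvm. Their log2 changes lay between 2.85 and 4.13, and each of the 8 was at least 2-fold above all libraries at 3 vvm. The spans ran from 267 to 5340 bases, and the 2 longest genes, of 4705 and 5340 bases, had log2 changes of 3.29 and 3.60. The median of the 8 genes was 0.986, 2.27, 7.71, 4.69 and 16.7 FPKM over the course and 219 at 1.5 vvm. One gene, from 41749 to 42801, differed from the others in having a level near 100 FPKM throughout at 3 vvm, between 84.1 and 111 FPKM. All 8 genes were still past 2-fold with the level of silent genes taken off and after centring by span.

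The other run of 8 genes covered 34.5 kb of contig 1 from 1527086 to 1561566. Its genes were between 1.47 and 45.6 FPKM at 48 h and 3 vvm and between 15.9 and 171 at 1.5 vvm, and 6 of the 8 were at least 2-fold above the whole course at 3 vvm. The longest, from 1532815 to 1539261 (6447 bases), climbed through 0.476, 0.968, 3.43, 5.88 and 19.03 FPKM over the course and had 88.3 at 1.5 vvm. The gene from 1540547 to 1542399 ran the other way at 3 vvm, from 31.4 FPKM at 6 h to 1.47 at 48 h, and stood at 39.4 at 1.5 vvm. The genes of this run thus shared the direction at low air but not the course at 3 vvm.

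Another 5 neighbours, between 1928885 and 1942836 of unitig_6, differed by a median log2 change of 2.99. Its last gene, from 1941934 to 1942836 (903 bases), had 302, 333, 376, 341 and 268 FPKM over the course and 2133 at 1.5 vvm. It was thus steady at 3 vvm and well above that course at 1.5 vvm. The gene from 1935084 to 1936007 (924 bases) had the largest log2 change of the run, 4.22, with 496 fragments at 1.5 vvm and 21 at 3 vvm. Of the 5 genes, 4 were at least 2-fold above the course at 3 vvm.

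A run of 5 genes on unitig_2 from 1409666 to 1421731 differed from these in its course. Its median FPKM was 126, 62.5, 9.76, 14.3 and 10.6 over the 5 times and 50.3 with less air. None of its genes was 2-fold above the course at 3 vvm. The first gene, from 1409666 to 1411515, had 1913, 278, 41.6, 47.9 and 115 FPKM over the course and 393 at 1.5 vvm.

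The 1 run of lower genes lay on unitig_4 from 1338689 to 1358218. Its 5 genes were between 63.1 and 307 FPKM at 48 h and 3 vvm and between 11.2 and 112 at 1.5 vvm, with log2 changes from -2.40 to -1.28. Their median was 111, 82.2, 136, 115 and 203 FPKM over the course and 74.5 at 1.5 vvm. The gene from 1341474 to 1342906 had the largest difference, with 63.1 FPKM at 48 h and 11.2 at 1.5 vvm. None of the 5 was 2-fold below the course at 3 vvm, and with the 36 h library in place of the 48 h library no run of 4 lower genes remained.

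**Figure D5:**
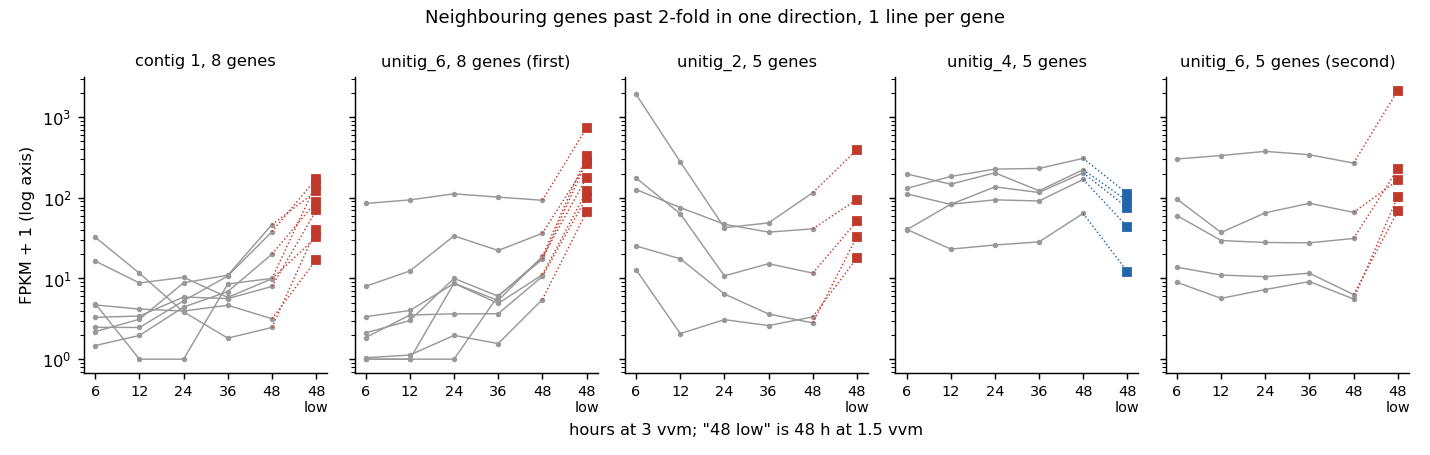
FPKM + 1 on a log axis of each gene of the 5 runs of at least 5 genes, 1 line per gene, over the hours at 3 vvm (grey) and at 48 h and 1.5 vvm (squares, red for higher and blue for lower runs). In the first unitig_6 run all 8 genes lie above their own course at 3 vvm, and in the unitig_2 run none is 2-fold above it.

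The remaining 6 runs had 4 genes each. The strongest on contig 1, between 528118 and 532912, reached a median of 13.0 FPKM at 1.5 vvm against 0.238 at 3 vvm, with 3 of its genes below 1 FPKM at 3 vvm. The longest genes were in the run on contig 1 from 3727265 to 3756736, where the median span was 7885 bases and the median went from 49.4 FPKM at 3 vvm to 169 at 1.5 vvm. The run on unitig_1 from 2553120 to 2559709 held a gene of 1969 FPKM at 1.5 vvm.

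Higher and lower genes were spread over all long contigs. Of 7532 genes on the 8 contigs with at least 100 listed genes, the share at least 2-fold higher lay between 12.8% on unitig_1 and 18.0% on contig 1. The share lower lay between 2.29% on contig 1 and 5.26% on unitig_3. Within 100 kb of a contig's first base or last gene, 54 of 167 genes (32.3%) were higher and 9 (5.39%) lower. Elsewhere 15.4% of 7365 genes were higher and 3.31% lower. The median span was 1269 bases near the ends against 1516 elsewhere. The run of 8 higher genes on unitig_6 from 26302 to 47093 is among the genes near an end.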

How the data were processed

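The labels' age and aeration defined the groups, 1 library each. Per the labels' protocols, RNA was purified on columns and libraries were made with an Illumina TruSeq kit. TopHat2 2.0.9 and Cufflinks 2.1.1 are named by the submitters' processing notes; build, annotation and strand setting are not given there or in the headers. FPKM were used as the authors deposited them. The 48 h library at 3 vvm and the 1.5 vvm library came from different deposited tables, merged by locus, and the 24 h FPKM was identical in both at 9930 of 9930 loci. The count columns hold a signal, per the file headers and values: fragments that the authors scaled to 1 total per table. Dividing by the step of a column gave whole fragments, within 0.1, for at least 99.9% of values. Another 4 columns of no sample were not used.

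Changes are log2(FPKM + 1), a scale that understates low genes. Fragment ratios relative to depth carry exact 95% intervals (scipy 1.17.1, pandas 2.3.3, Python 3.11.15). In an analysis added once the data had been seen, edgeR 4.0.16 (R 4.3.3) tested aeration beside a line over log2 time on the recovered fragments. Steps were tested on simulated data. Identifiers named are the 2 most different in each direction with at least 100 FPKM in the higher and 10 in both libraries; runs of at least 5 genes and abundant genes past 2-fold were named by position, and further genes within runs and runs of 4 genes were picked after their values were seen. Members, lists and rules were chosen with earlier results of these data known. Lists of named genes could not be applied. Coordinates are the authors', with the start raised by 1. Alternatives were other pseudocounts, filters, scalings and reference libraries.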

Additional observations from a re-analysis of the deposited data

Results flagged for a closer look

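A signal appeared in genes that the comparison did not use. The table with the 1.5 vvm library lists 304 genes that the time course table does not, and 21 of them were at 10 FPKM or more at 1.5 vvm. Of these, 10 had more than the 3 fragments that a count of 0 allows. The highest was at 137 FPKM, and the median span of the 21 was 234 bases.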

How the results depend on the processing

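No paired analysis was possible because each group had 1 library, and no library could be left out. Of the alternatives to each value, 143 left it close to that reported, 52 moved it and 1 reversed it; counts were called close within 1.5 times. Without a filter on low values, 2167 genes were at least 2-fold and 568 at least 4-fold higher, 943 were 2-fold above the course at 3 vvm, 1084 steady genes were higher, 1272 had a counting interval above 2, 54 runs were higher and the median log2 change was 0.29. With at least 1 FPKM these were the same but for 1266 genes and a median of 0.28. With at least 50 FPKM they were 424, 100, 101, 104 and 301 genes and 5 runs, and 150 genes were lower, 14 of them steady. A pseudocount of 5 FPKM left 166 genes at least 4-fold higher. Rescaling to a common sum reversed the median log2 change, to -0.10, and gave 787 genes higher and 423 lower, 280 and 50 among steady genes, 32 below the course and 5 higher runs. The cause was not tested. Centring on the median, which sets it to 0, gave 31 genes below the course and 46 steady genes lower. Centring by deciles of span, which removes the gradient (0.0044), gave 394 genes lower, 31 below the course, and 301 higher and 50 lower among steady genes. Against the 36 h library 23 genes were at least 4-fold lower and 0 runs were lower. Against the 24 h library 131 genes were at least 2-fold and 12 at least 4-fold lower, 78 had a counting interval below 0.5, and the gradient with span was 0.63; both libraries are of another age. With edgeR's quasi-likelihood test on recovered fragments, 464 of 7503 genes were higher and 159 lower at a Benjamini-Hochberg adjusted p under 0.05, where the spread is the deviation of the libraries at 3 vvm from a line over log2 time. The lone 1.5 vvm library is assumed to vary like them, so these counts describe that library and give no replicate check of the air supply. Depth limits the 41 higher genes with under 20 fragments at 1.5 vvm.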
